A study of Mus musculus with 6 samples.

Results

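Aminoacyl-tRNA synthetases join each amino acid to its tRNA, and 36 genes of this family were followed out of the 21135 genes in the deposited table. They were chosen by symbol, through the Ensembl identifier of each row, and fall into 20 genes for enzymes of the cytosol and 16 genes for enzymes of the mitochondrion, whose symbols end in 2. All 36 were present, and all 36 passed the filter on low values, a mean of at least 10 over the 6 libraries. Levels are given in normalised reads, that is, reads divided by a size factor of the library. A gene is called where its adjusted p is below 0.05, and only called genes are said to have risen or fallen.

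The RNA came from DN3 thymocytes of C57BL/6 mice, the CD4-negative CD8-negative stage at which T-cell precursors assemble the receptor beta chain under the control of Notch1. In the 3 mutant libraries GATA site 1 and GATA site 2 of NMe were mutated on both alleles, and the 3 wild-type libraries carried an intact NMe. NMe is the Notch-bound enhancer of Myc. The question that the study's title poses is how the transcriptome differs between these genotypes. Nothing in the labels says that each library came from its own animal, so the p-values speak only of the spread among libraries, which may be technical. In bulk RNA of this kind, a lower level can come from fewer cells of a type or from less RNA of the gene per cell. These cannot be told apart. Levels are scaled within each library, so a change in the total RNA of a cell cannot be seen.

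A synthetase activates its amino acid with ATP and transfers it to the matching tRNA, and the charged tRNA is carried to the ribosome by elongation factor. Cytosolic enzymes serve translation of nuclear messages, whereas the mitochondrial enzymes are also encoded in the nucleus, are imported, and serve only the few proteins encoded by the mitochondrial genome. Several cytosolic enzymes sit together in the multisynthetase complex, held by non-catalytic scaffold proteins. The growth regulator MYC binds E-box sequences near many genes of translation, and ATF4, the effector of the amino acid response, binds C/EBP-ATF response elements in the promoters of several synthetase genes.

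The promoters shown here are those of 6 members that stand at different places in the results. Gars, Iars and Farsb were among the cytosolic genes with the largest decreases, Tars carries both motifs and had a smaller log2 change, Aars carries both and was not called, and Yars2 had the lowest log2 change among the mitochondrial genes. Each line gives the 150 bases before the annotated start on the gene's own strand, 5′ to 3′, from RefSeq on GRCm38.p6. Capitals mark the E-box CACGTG and the core TGATGNAA of the C/EBP-ATF response element, each searched on both strands.
Gars (chr6:55037851-55038000, plus strand): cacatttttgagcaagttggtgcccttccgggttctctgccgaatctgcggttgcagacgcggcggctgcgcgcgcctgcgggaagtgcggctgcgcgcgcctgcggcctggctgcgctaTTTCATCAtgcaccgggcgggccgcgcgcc
Iars (chr13:49681980-49682129, plus strand): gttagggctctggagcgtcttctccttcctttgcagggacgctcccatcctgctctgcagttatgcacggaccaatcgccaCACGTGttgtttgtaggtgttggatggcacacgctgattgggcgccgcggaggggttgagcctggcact
Farsb (chr1:78488898-78489047, minus strand): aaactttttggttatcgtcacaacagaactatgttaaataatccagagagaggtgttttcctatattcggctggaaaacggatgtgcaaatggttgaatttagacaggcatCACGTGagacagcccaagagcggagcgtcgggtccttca
Tars (chr15:11399659-11399808, minus strand): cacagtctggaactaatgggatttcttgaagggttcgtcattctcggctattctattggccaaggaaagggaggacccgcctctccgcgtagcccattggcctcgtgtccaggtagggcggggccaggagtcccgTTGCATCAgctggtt
Aars (chr8:111033692-111033841, plus strand): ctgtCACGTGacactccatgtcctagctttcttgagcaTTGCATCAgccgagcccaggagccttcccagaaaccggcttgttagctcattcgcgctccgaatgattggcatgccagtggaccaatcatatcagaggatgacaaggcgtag
Yars2 (chr16:16302815-16302964, plus strand): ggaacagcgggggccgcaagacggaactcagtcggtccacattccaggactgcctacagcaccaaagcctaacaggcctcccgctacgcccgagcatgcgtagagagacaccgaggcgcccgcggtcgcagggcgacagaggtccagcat
Under the member symbols used here, the promoter table held an entry for 27 of the 36 members, 13 cytosolic and 14 mitochondrial. Each entry ran from 250 bases before to 50 bases after the start. Other names of the remaining members were not searched, so their entries are not shown to be absent. CACGTG was found in 5 of these 27 entries (Aars, Farsb, Iars, Tars and Ears2), or 18.5%, against 7.15% of all 32851 promoters in the table. By class these were 4 of 13 cytosolic and 1 of 14 mitochondrial entries. TGATGNAA was also found in 5 of the 27 entries (Aars, Gars, Iars, Tars and Yars), or 18.5%, against 3.97% of all promoters. By class these were 5 of 13 cytosolic and 0 of 14 mitochondrial entries. Members were counted by gene, and all promoters by entry. In Iars and in Yars the response element lay just after the start, with its first base at position 8 in Iars and at position 4 in Yars, as did a second one in Aars, at position 10, and the E-box of Tars began at position 20, so these matches fall outside the lines shown. The 2 motifs share no overlapping bases in these entries. Of the 6 promoters shown, all but that of Yars2 hold a match, whereas most of the 27 members with an entry hold neither motif. The lines shown are therefore not typical of the members. Rars, Eprs and Kars, which had lower log2 changes than Farsb, are not among them. A match is only a match of letters, and no binding was measured.

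Recovered reads numbered 43.0 ± 4.9 M in the mutant and 47.2 ± 4.5 M in the wild-type libraries (SD, n = 3 each), and a principal component analysis separated the genotypes on its first axis (42% of the variance) and set wild type replicate 3 apart on its second (17.1%). Leaving out wild type replicate 3 left 13 cytosolic and 2 mitochondrial synthetase genes called, against 15 and 4 with all 6 libraries. The kits used do not keep the strand of the RNA, and 11 members (Aars, Farsb, Hars, Mars1, Wars, Yars, Cars2, Ears2, Fars2, Hars2 and Iars2) overlap another protein-coding gene. Reads in the overlaps therefore cannot be assigned with certainty. Aars overlaps Exosc6 by 1326 bases on the same strand, so there the strand would not separate the reads. Exosc6 is not among the genes of the deposited table. Myc, whose enhancer was mutated, had 5562, 4612 and 6165 normalised reads in the mutant libraries, against 18041, 19223 and 20196 in the wild-type libraries, with no overlap (log2 change -1.82 ± 0.12, adjusted p = 4.22e-05).

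The label of the cells was checked with marker genes. The 8 DN3 markers, among them Il2ra, Ptcra and Lck, summed to 330728 to 382060 normalised reads in mutant libraries and 246499 to 272215 in wild-type libraries, and 5 of the 8 rose while 1 fell. Markers of later thymocytes summed to 1089 to 1573 in mutant and 769 to 872 in wild-type libraries, B-cell markers to 2427 to 3872 in mutant and 2352 to 2781 in wild-type libraries, and myeloid markers to 1400 to 2383 in mutant and 1884 to 2490 in wild-type libraries. NK and innate markers, nearly all of them reads of Nkg7, summed to 9233 to 18067 in mutant and 4415 to 7260 in wild-type libraries, and Nkg7 rose by 1.08 (adjusted p = 0.0125). Stromal markers summed to 9984 to 13544 in mutant and 8229 to 10044 in wild-type libraries, and erythroid markers to 1.1 to 29.0 in mutant and 3.56 to 7921 in wild-type libraries, where wild type replicate 2 held nearly all haemoglobin reads. Of the 5 later thymocyte markers, 1 rose (adjusted p = 0.0178) and 0 fell, against 7.94% of all tested genes called higher. In 3 of the 5 every mutant library was above every wild-type library, and in 2 every mutant library was below. Over all 17815 tested genes these arrangements were found in 3204 and 3617. Single markers of other cells were called in both directions. H2-Ab1 of the myeloid list fell by 1.44 (adjusted p = 0.000424), while Pecam1 of the stromal list rose by 0.41 (adjusted p = 0.0324). Leaving out any 1 library except mutant replicate 3 ended the call of Pecam1 (adjusted p up to 0.108). Of the myeloid list, Csf1r, a receptor of macrophages, was at 3.62 to 14.8 in mutant and 0 to 4.77 in wild-type libraries. The later thymocyte and myeloid lists were present in full, with 5 and 6 genes, whereas the table used here listed 3 of 4 B-cell, 4 of 5 NK and innate, 4 of 5 erythroid and 4 of 5 stromal markers. Without wild type replicate 2, 12 cytosolic and 2 mitochondrial synthetase genes were called. The part of these other cells in the change of the synthetase genes was not tested.

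Cytosolic synthetase genes were lower in the mutant as a group. All 20 had a negative log2 change, 15 fell past the threshold and 0 rose (limma, adjusted p from 0.000585 to 0.0485 among the 15). Over all 17815 tested genes, 10.9% were called lower and 7.94% higher, so that the share of 15 in 20 is above that of all genes, while 4 of 16 mitochondrial genes is nearer to it. These shares stand for 1938 genes lower and 1414 higher, and with libraries scaled to equal totals 1647 were lower and 1827 higher. The median log2 change of the 20 was -0.50, against 0.03 over all tested genes. In 19 of the 20 every mutant library was below every wild-type library, an arrangement found in 20.3% of all tested genes. Of the 16 mitochondrial synthetase genes, 4 fell, 0 rose, 13 had a negative log2 change, and the median was -0.33. In 10 of the 16 every mutant library was below every wild-type library, and in 1 every mutant library was above. These too stand against 20.3% of all tested genes with every mutant library below, and 8530 of 17815 with a negative log2 change.

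**Figure D1:**
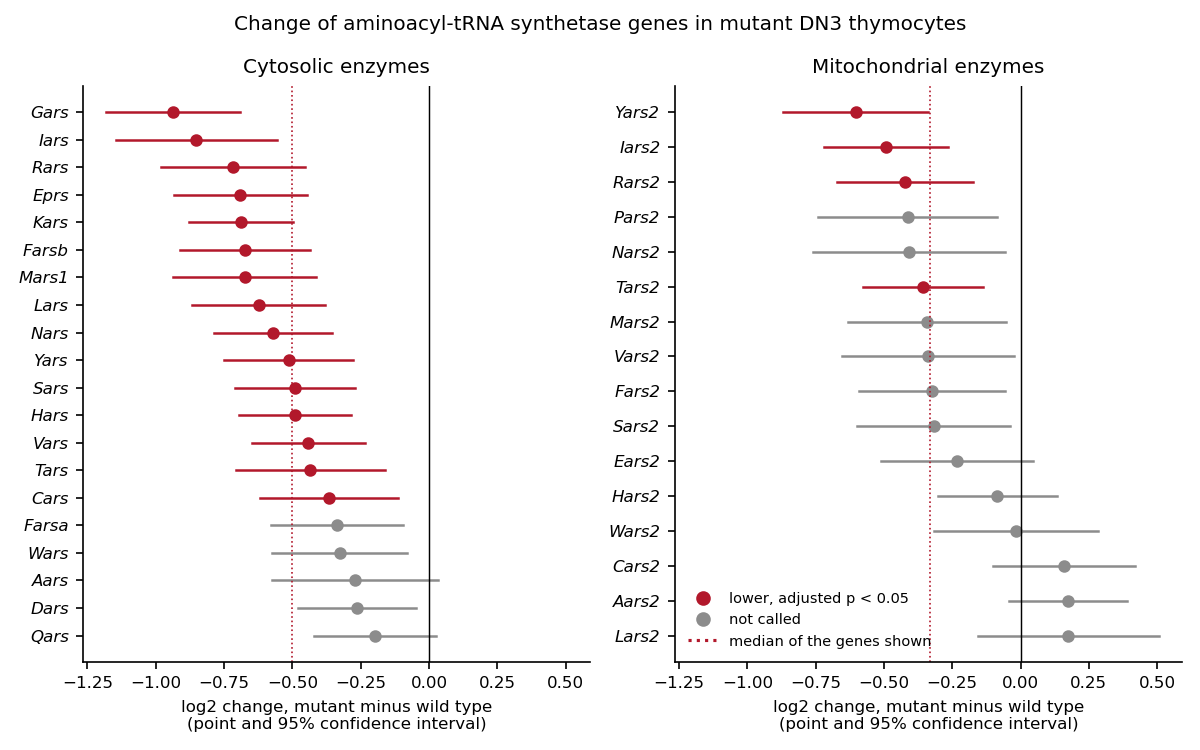
Log2 change (mutant minus wild type, horizontal axis) of each of the 36 synthetase genes with its 95% confidence interval, cytosolic and mitochondrial genes in separate panels, and the median of the genes of the panel as a dotted line. Intervals are not adjusted for multiple testing, and called genes are red. All 20 cytosolic points lie below 0, from -0.94 for Gars to -0.20 for Qars, whereas the mitochondrial points run from -0.60 for Yars2 to 0.18 for Lars2.

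The summed level of the 20 cytosolic genes was 128038, 137787 and 132389 normalised reads in the mutant libraries, against 175388, 191082 and 206321 in the wild-type libraries. The groups did not overlap, and the mutant mean was 69.5% of the wild-type mean (132738 ± 4884 against 190930 ± 15467, SD, n = 3 each). The 15 mitochondrial genes other than Lars2, whose count is uncertain for a reason given with its values, summed to 33712, 34204 and 34170 in the mutant libraries, against 38576, 40697 and 41883 in the wild-type libraries. These sums also did not overlap, with the mutant mean at 84.3% of the wild-type mean. Per kilobase of exon the cytosolic genes were the more abundant class in both genotypes, with a median level of 1341 normalised reads in mutant and 2125 in wild-type cells, against 432 in mutant and 510 in wild-type cells for the 16 mitochondrial genes. Among cytosolic genes in wild-type cells, Vars was highest per kilobase (4664) and Cars lowest (617). The length used merges all annotated exons of a gene, 18102 bases for Eprs, and the transcripts in use were not measured. Levels per kilobase and their ranks depend on this length.

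Gars (GRCm38 chr6:55038007-55079500, plus strand), the glycyl-tRNA synthetase gene, had the lowest log2 change of the 36 members. It encodes the enzyme of both compartments from 1 gene. Its level was 5552, 5826 and 5832 normalised reads in the mutant libraries, against 9501, 11266 and 12335 in the wild-type libraries. All 3 mutant libraries lay close together and well below the lowest wild-type library, with a log2 change of -0.94 ± 0.11 (SE, adjusted p = 0.000585) and a mutant mean at 52.0% of wild type. Kars, which likewise supplies lysyl-tRNA synthetase to both compartments and also sits in the multisynthetase complex, had 6370, 6193 and 6265 normalised reads in the mutant libraries, against 9813, 10234 and 10320 in the wild-type libraries. The spread within each genotype was narrow, the groups did not overlap, and Kars fell by 0.69 ± 0.09 on the log2 scale (adjusted p = 0.00071).

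The 8 catalytic genes of the multisynthetase complex (Dars, Eprs, Iars, Kars, Lars, Mars1, Qars and Rars) covered a wide range of log2 changes. Of these, 6 fell (75%, against 10.9% of all tested genes called lower), with a median log2 change of -0.68 over all 8. Dars and Qars were not called. Iars (isoleucine, chr13:49682100-49734267) had 5614, 6170 and 6290 normalised reads in the mutant libraries, against 9154, 10595 and 13219 in the wild-type libraries. Wild type replicate 3 was the highest of all, but even the lowest wild-type library exceeded every mutant library, and the log2 change was -0.85 ± 0.13 (adjusted p = 0.00211). Eprs, which encodes 1 protein that charges both glutamate and proline tRNAs, had 7769, 9508 and 8961 normalised reads in the mutant libraries, against 13104, 13610 and 15618 in the wild-type libraries. The gap between the groups was wider than the range within either, and Eprs fell by 0.69 ± 0.11 (adjusted p = 0.00236). Rars (arginine) had 4278, 4274 and 3799 normalised reads in the mutant libraries, against 5833, 6898 and 7662 in the wild-type libraries, with no overlap. Its log2 change was -0.72 ± 0.12 (adjusted p = 0.00295). Mars1 (methionine) fell by 0.67 (adjusted p = 0.00384) and Lars (leucine) fell by 0.62 (adjusted p = 0.00384).

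Dars (aspartate), second among cytosolic genes in level per kilobase, had 14403, 15424 and 14829 normalised reads in the mutant libraries, against 16778, 17010 and 19974 in the wild-type libraries, a log2 change of -0.26 ± 0.10 that missed the threshold (adjusted p = 0.0848). Its groups did not overlap, although the step between them was small. Qars (glutamine) had 4796, 4885 and 4318 normalised reads in the mutant libraries, against 5701, 5321 and 5017 in the wild-type libraries. Its groups also stayed apart, by a margin smaller than the range within either, with a log2 change of -0.20 ± 0.10 (adjusted p = 0.2).

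Outside the complex 9 of 12 cytosolic genes fell, with a median log2 change of -0.47. This is the same share, 75%, as within the complex, against 10.9% of all tested genes. The difference from the median of the complex genes (-0.68) was not tested. Farsb, the beta subunit of phenylalanyl-tRNA synthetase, fell by 0.67 ± 0.11 (adjusted p = 0.00235), whereas Farsa, the catalytic alpha subunit of the same enzyme, changed by -0.34 ± 0.11 and was just outside the threshold (adjusted p = 0.0544). Farsa was called without mutant replicate 1 (adjusted p = 0.0225). Nars (asparagine) fell by 0.57 (adjusted p = 0.00338), Yars (tyrosine) by 0.51 (adjusted p = 0.00867), and Hars (histidine) and Sars (serine) each by 0.49 (adjusted p = 0.00561 for Hars and 0.00757 for Sars). Vars (valine), the most abundant cytosolic member per kilobase, fell by 0.44 (adjusted p = 0.00969) but was not called without wild type replicate 2 (adjusted p = 0.0548). The 2 calls nearest to the threshold were Tars (threonine), with a log2 change of -0.43 (adjusted p = 0.0349), and Cars (cysteine), with -0.37 (adjusted p = 0.0485). Tars lost its call without any library except wild type replicate 1 (adjusted p from 0.0608 to 0.108), and so did Cars (0.0805 to 0.147). Wars (tryptophan) changed by -0.33 (adjusted p = 0.0676) and was called without wild type replicate 1 (adjusted p = 0.0376).

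Aars, the alanyl-tRNA synthetase whose promoter holds both motifs, was the only cytosolic member with overlapping groups. It had 4176, 5202 and 5032 normalised reads in the mutant libraries, against 4805, 6153 and 6507 in the wild-type libraries. Mutant replicates 2 and 3 were above wild type replicate 1, and the log2 change of -0.27 ± 0.14 was not called (adjusted p = 0.193). Iars, which holds the same motifs, was called and Aars was not, and the difference between these 2 genes was not tested. The 2 structural classes of synthetase, which differ in the fold of the catalytic domain, gave like counts among cytosolic genes. In class I, 7 of 9 fell with a median of -0.51, and in class II 7 of 10 with a median of -0.49. Eprs was left out because it holds a domain of each class. Over all tested genes 10.9% were called lower.

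**Figure D2:**
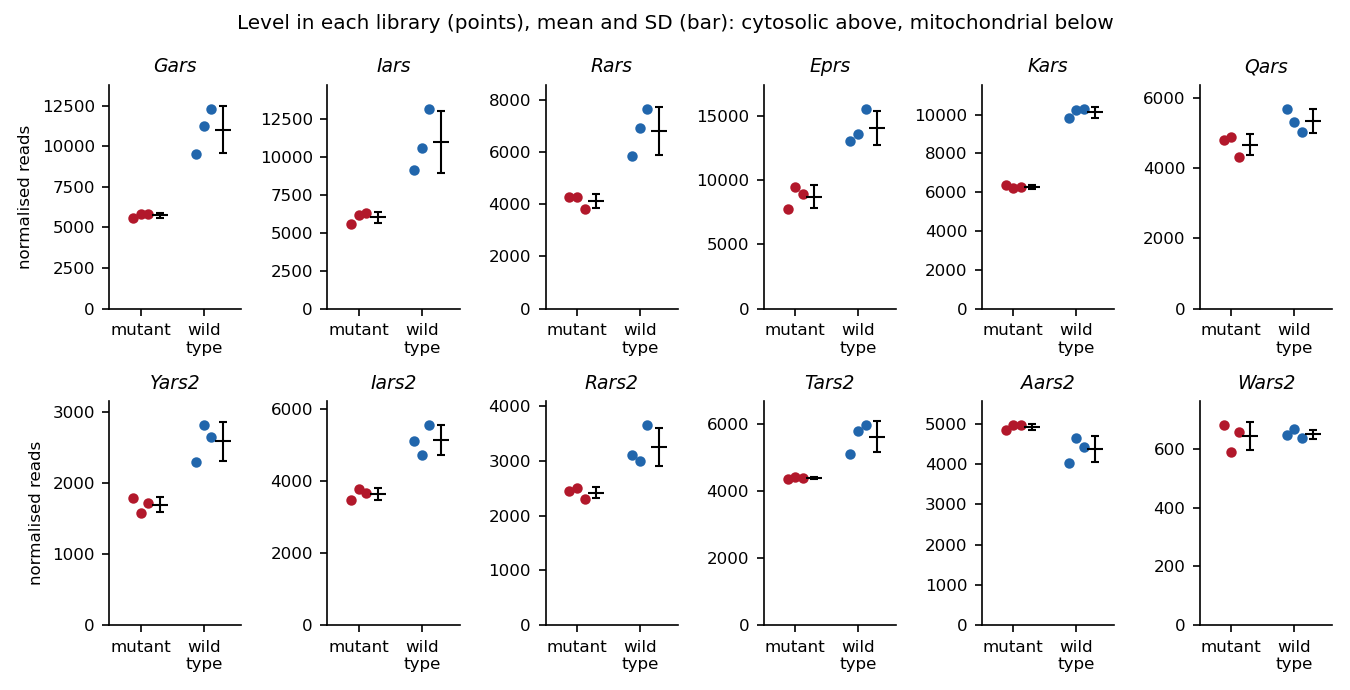
Normalised reads in each library (points) with the mean and SD of each genotype (bars), mutant left and wild type right, for 6 cytosolic and 6 mitochondrial synthetase genes; every vertical axis starts at 0. In the cytosolic row the genotypes are apart for all 6, narrowly so for Qars, and in the mitochondrial row Wars2 overlaps and Aars2 lies higher in the mutant (4840 to 4970, against 4030 to 4655 in wild type).

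Among the mitochondrial genes the largest decrease was that of Yars2 (chr16:16302965-16309640), the mitochondrial tyrosyl-tRNA synthetase gene. Yars2 had 1794, 1579 and 1715 normalised reads in the mutant libraries, against 2289, 2815 and 2645 in the wild-type libraries. The groups were well apart, and the log2 change was -0.60 ± 0.12 (adjusted p = 0.00694). Iars2 had 3461, 3781 and 3670 normalised reads in the mutant libraries, against 5109, 4728 and 5550 in the wild-type libraries, again without overlap, and fell by 0.49 ± 0.10 (adjusted p = 0.00858). The calls of both genes held without any single library.

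Rars2 and Tars2 were called with less margin. Rars2 had 2452, 2499 and 2313 normalised reads in the mutant libraries, against 3109, 3000 and 3659 in the wild-type libraries (log2 change -0.42 ± 0.11, adjusted p = 0.0263). Tars2 had 4359, 4413 and 4385 normalised reads in the mutant libraries, against 5102, 5811 and 5975 in the wild-type libraries (log2 change -0.36 ± 0.10, adjusted p = 0.0313). Both genes had separate groups, with the mutant libraries of Tars2 nearly equal. Rars2 lost its call without any library except mutant replicate 1 (adjusted p from 0.0517 to 0.087), and Tars2 without any except wild type replicate 1 (0.0583 to 0.122). The number of mitochondrial genes called was 2 without mutant replicate 2, without wild type replicate 2 or without wild type replicate 3.

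Pars2 and Nars2 had log2 changes close to that of Rars2 and were not called. Pars2, for proline, had 688, 843 and 664 normalised reads in the mutant libraries, against 872, 993 and 1052 in the wild-type libraries (log2 change -0.41 ± 0.15, adjusted p = 0.078). Nars2, for asparagine, had 1394, 1244 and 1202 normalised reads in the mutant libraries, against 1394, 1653 and 2116 in the wild-type libraries (log2 change -0.41 ± 0.16, adjusted p = 0.101). Wild-type libraries of Nars2 were widely spread, and the lowest of them was level with the highest mutant library. Mars2 and Vars2 (each -0.34), Fars2 and Sars2 (each -0.32), and Ears2 (-0.23) also missed the threshold, with adjusted p from 0.0897 to 0.224, and Sars2 was called without mutant replicate 3 (adjusted p = 0.0488).

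Hars2, Wars2, Cars2 and Aars2 were not called, and their log2 changes were, with that of Lars2, the highest of the 36 members. Hars2 changed by -0.09 (adjusted p = 0.585). Wars2 changed by -0.02 (adjusted p = 0.939), and its sign turned positive with libraries scaled to equal totals or without mutant replicate 2. Cars2 had 3470, 3423 and 2958 normalised reads in the mutant libraries, against 2968, 3217 and 2646 in the wild-type libraries, with overlap (log2 change 0.16, adjusted p = 0.373). Aars2 had 4840, 4969 and 4970 normalised reads in the mutant libraries, against 4030, 4655 and 4433 in the wild-type libraries. It was the only one of the 36 genes with every mutant library above every wild-type library, but its log2 change of 0.17 ± 0.10 was not called (adjusted p = 0.237).

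Lars2, the mitochondrial leucyl-tRNA synthetase, carried an exceptionally high count that has to be read as uncertain. It had 363407, 269741 and 238562 normalised reads in the mutant libraries, against 268651, 270712 and 223420 in the wild-type libraries, with overlap and no call (log2 change 0.18 ± 0.15, adjusted p = 0.445). Its mean of 272416 was the highest of all 21135 genes and made up 0.56% to 0.818% of the normalised reads of a mutant library and 0.489% to 0.598% of a wild-type library. A Lars2 transcript of 3894 bases shares a stretch of 72 bases, 71 of them identical, at its positions 3278 to 3349 with Gm15564 (GRCm38 chr16:35966752-35983230, minus strand), a gene looked up after the values were seen. Gm15564 had 14056, 9982 and 8811 normalised reads in the mutant libraries, against 10829, 10009 and 8313 in the wild-type libraries. The ratio of Lars2 to Gm15564 was 25.9, 27.0 and 27.1 in the mutant libraries, against 24.8, 27.0 and 26.9 in the wild-type libraries, so that the counts of these genes went up and down together from library to library. Where the reads of Lars2 lie within the gene cannot be seen in a table of gene counts, and their source was not tested.

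**Figure D3:**
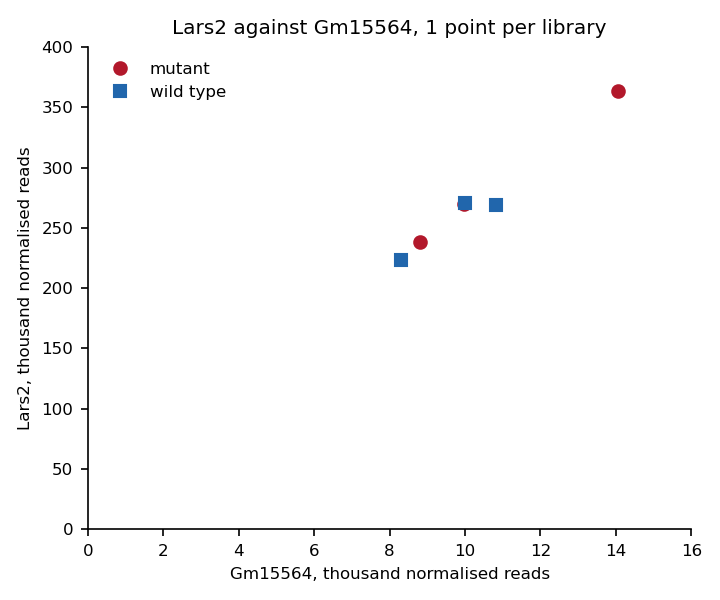
Normalised reads of Lars2 (vertical axis, in units of 1000) against those of Gm15564 (horizontal axis, in units of 1000) in each library, both axes linear from 0, mutant and wild type in separate colours. Mutant replicate 2 and wild type replicate 2 nearly coincide. The 6 points lie near a single line through the origin, at ratios of 24.8 to 27.1, with mutant replicate 1 the highest on both axes.

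The same amino acid can be compared in the cytosol and the mitochondrion within 1 library, so that the scale of the library drops out. The ratio of the cytosolic to the mitochondrial gene was computed for 16 pairs, with Eprs standing in 2 of them. The log2 ratio was lower in the mutant for 15 of 16 pairs, with a median difference of -0.30. In 9 pairs, among them that of Lars2 with its uncertain count, every mutant library was below every wild-type library. No share over other pairs of genes was computed, so these counts have no background to be set against. With 3 libraries against 3, the exact permutation test of a pair cannot give a p under 0.1, and these 9 pairs reached that value (0.178 with Benjamini-Hochberg adjustment over the 16 pairs), so that no pair can pass the threshold by this test. All pairs rest on the same 6 libraries and are not independent of each other.

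Among the widest differences were those of 3 pairs whose mitochondrial gene was not called. For alanine, Aars over Aars2 was 0.863, 1.05 and 1.01 in the mutant libraries, against 1.19, 1.32 and 1.47 in the wild-type libraries, a log2 difference of -0.45. These are ratios of reads with no correction for length, so they compare libraries and not the levels of the partners. For cysteine, Cars over Cars2 was 0.846, 0.958 and 1.09 in the mutant libraries, against 1.21, 1.28 and 1.70 in the wild-type libraries, a difference of -0.52. For histidine, whose genes stand head to head on chromosome 18 and overlap by 198 bases, Hars over Hars2 was 1.34, 1.44 and 1.44 in the mutant libraries, against 1.89, 1.82 and 1.88 in the wild-type libraries, a difference of -0.40. The cytosolic gene of this divergent pair fell and the mitochondrial gene was not called, and the spread of the ratio within each genotype was small.

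Differences of -0.46 for Eprs over Ears2, -0.36 for Iars over Iars2, -0.33 for Mars1 over Mars2, -0.29 for Rars over Rars2 and -0.28 for Eprs over Pars2 also came with separate groups. Lars over Lars2 differed by -0.80, with the reservation that applies to Lars2. In the other 7 pairs the groups overlapped, with differences of -0.31 for tryptophan, -0.17 for serine, -0.16 for asparagine, -0.10 for valine, -0.08 for threonine and -0.01 for phenylalanine, taken with Farsa. Tyrosine was the only pair with a positive difference (0.09), since Yars2 had a lower log2 change than Yars.

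**Figure D4:**
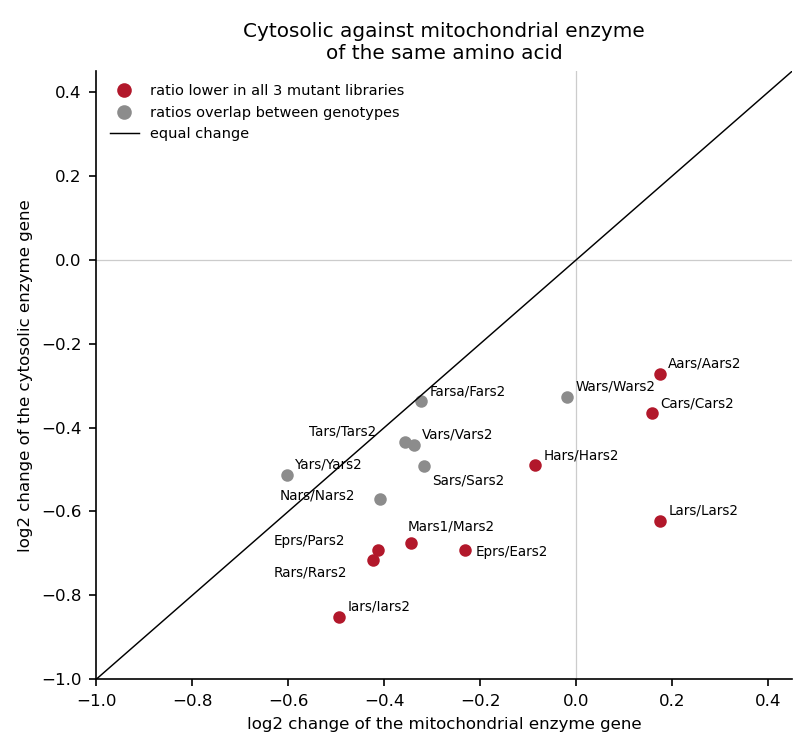
Log2 change of the cytosolic gene (vertical axis) against that of the mitochondrial gene of the same amino acid (horizontal axis) for 16 pairs, both mutant minus wild type, with the line of equal change. Pairs whose ratio was lower in all 3 mutant libraries are red and those with overlapping ratios grey; 15 of 16 points lie below the line, and Yars/Yars2 lies above it.

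The non-catalytic scaffold of the multisynthetase complex was lower as well. All 3 scaffold genes, Aimp1, Aimp2 and Eef1e1 (also called Aimp3), were lower, with a median log2 change of -0.65 and adjusted p from 0.00117 to 0.00983. Aimp2 had 1296, 1097 and 1069 normalised reads in the mutant libraries, against 2065, 2229 and 2058 in the wild-type libraries, which is a log2 change of -0.88. Eef1e1 fell by 0.65 and Aimp1 by 0.57, with no overlap of the groups in any of the 3 genes. Over all tested genes 10.9% were called lower, and 20.3% had every mutant library below every wild-type library.

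Of 10 genes for editing of mischarged tRNA and for tRNA amidation, 2 fell and 0 rose, with a median of -0.27, against 10.9% of all tested genes called lower. Dtd1, the deacylase that removes D-amino acids from tRNA, had 1095, 757 and 714 normalised reads in the mutant libraries, against 2532, 2250 and 2418 in the wild-type libraries. Its log2 change of -1.51 ± 0.17 (adjusted p = 0.000395) was lower than that of any synthetase listed, and its groups were far apart. Gatb, a subunit of the mitochondrial glutamyl-tRNA amidotransferase, changed by -0.50 (adjusted p = 0.0243) but was not called without any library except mutant replicate 1 (adjusted p from 0.0502 to 0.0826). Of the 2 calls in this list (20%), 1 is thus that of Gatb. The 10.9% of all tested genes counts calls with all 6 libraries and was not screened in this way. No excess over all genes is therefore read from this list. Gatc, another subunit, changed by -0.36 (adjusted p = 0.0635), and Aarsd1, an alanyl-tRNA editing protein, by -0.38 (adjusted p = 0.184).

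Among genes that mature and export the tRNA itself, 15 of 23 fell (65.2%, against 10.9% of all tested genes) and 0 rose, with a median of -0.50. Nsun2, which methylates cytosines of tRNA, had 9046, 11094 and 9823 normalised reads in the mutant libraries, against 20118, 21273 and 23620 in the wild-type libraries (log2 change -1.12, adjusted p = 0.000186). Xpot, the export receptor of tRNA, had 2925, 3432 and 3300 in the mutant libraries, against 6236, 6473 and 7772 in the wild-type libraries (log2 change -1.08, adjusted p = 0.000373). For both genes the lowest wild-type library lay far above the highest mutant library. Rpp14 and Rpp40, subunits of ribonuclease P, fell by 0.73 and 0.83 (adjusted p = 0.00115 for Rpp14 and 0.00236 for Rpp40). Without wild type replicate 2 the count of this list was 9. In that fit 1086 of all tested genes were called lower, against 1938 with all 6 libraries.

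Of 21 genes of RNA polymerase III and its factors, which transcribe tRNA genes, 5 fell (23.8%, against 10.9% of all tested genes) and 0 rose, with a median of -0.18. Among those that fell were the subunit gene Polr3e (-0.78, adjusted p = 0.00111) and the initiation factor genes Gtf3c4 (-0.71, adjusted p = 0.00797) and Gtf3a (-0.64, adjusted p = 0.0135). Of the 21 genes, 16 did not pass the threshold.

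All 5 cytosolic elongation factor genes, whose products bring charged tRNA to the ribosome and move it through, fell (adjusted p from 0.000406 to 0.00131), with a median of -0.80, which was lower than the median of the cytosolic synthetases. Eef1g (-0.97), Eef1a1 (-0.83), Eef1d (-0.80) and Eef1b2 (-0.79) encode the carrier of charged tRNA and its exchange factors. Of 5 mitochondrial elongation factor genes 3 fell, namely Gfm1 (-0.63), Tsfm (-0.57) and Tufm (-0.51), with adjusted p from 0.00849 to 0.0101, and Guf1 (-0.29) and Gfm2 (-0.04) were not called. Tufm was not called without wild type replicate 2 (adjusted p = 0.0506). Beside these 2 counts, 10.9% of all tested genes were called lower. No difference between the compartments was tested for these factors.

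In the amino acid response, 14 of 16 listed genes were tested, 5 fell (35.7%) and 1 rose, with a median of -0.22. Over all tested genes 10.9% were called lower and 7.94% higher, so 1 of 14 is near the share called higher. Asns, which makes asparagine, had 26, 46 and 25 normalised reads in the mutant libraries, against 218, 207 and 361 in the wild-type libraries. The groups were far apart, with a log2 change of -2.97 ± 0.33 (adjusted p = 0.000434), although at so few reads the count itself is imprecise. Phgdh of serine synthesis fell by 0.74 (adjusted p = 0.000674), and Slc7a5 and Slc3a2, which together form a transporter of large neutral amino acids, fell by 1.36 and 0.69 (adjusted p = 0.000977 for Slc7a5 and 0.0013 for Slc3a2). Atf4, the transcription factor of this response, changed by -0.02 (adjusted p = 0.94) at the RNA level. Ddit3, a target of ATF4, rose by 0.57 (adjusted p = 0.023). Ddit3 overlaps Mars1 by 68 bases on the other strand, and its call was lost when wild type replicate 3 or any 1 mutant library was left out (adjusted p from 0.055 to 0.0619).

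**Figure D5:**
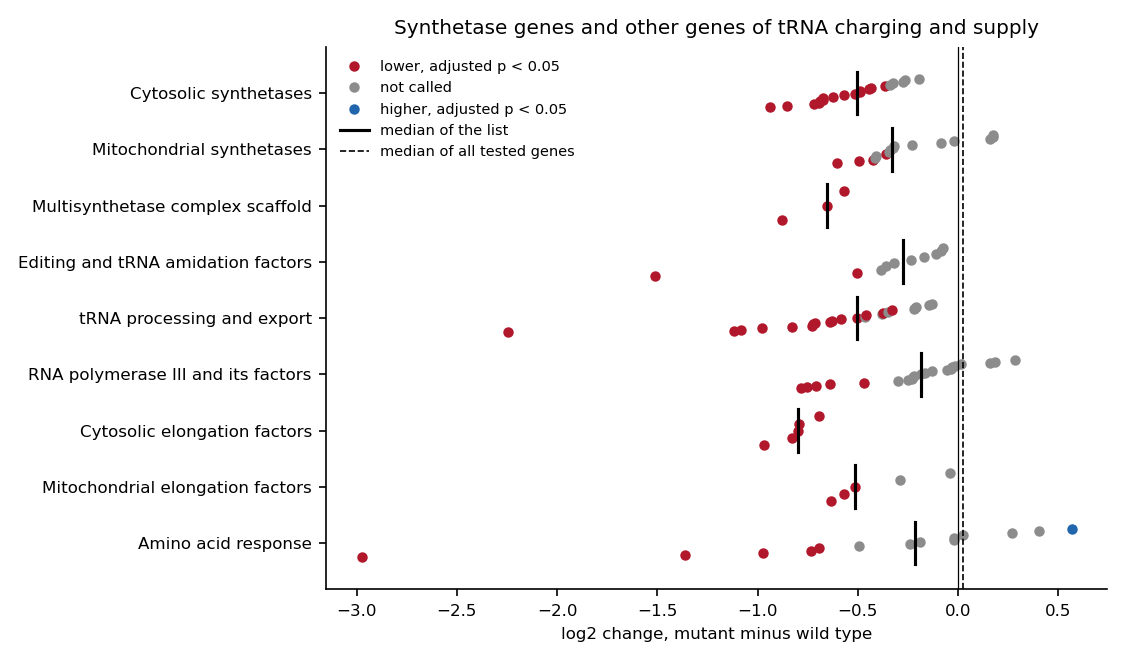
Log2 change (mutant minus wild type, horizontal axis) of every tested gene of the synthetase lists and of 7 further lists of tRNA supply and use, with the median of each list as a bar and that of all tested genes as a dashed line. Genes called lower are red, genes called higher blue and the rest grey; 1 gene, Ddit3 of the amino acid response, is blue, and the cytosolic elongation factors and the scaffold genes are all red.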

How the data were processed

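RNA of 6 libraries (3 mutant, 3 wild type) was converted to cDNA with SMART-Seq v4 and tagged with Nextera XT, per the labels' protocols, and the submitters' processing notes name STAR 2.5.3, featureCounts, DESeq2 1.20.0, mm10 and GRCm38. No source used here gives the annotation release or the counting options. The deposited unit is a signal per gene, namely a read number that was scaled by 1 factor per library by the authors; the values themselves show this, since 100.0% of 126810 values were whole reads within 0.1 reads after division by the smallest step. Libraries held 38.6 to 51.3 M recovered reads. A GENCODE M21 symbol was found for 21100 of 21135 genes.

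From these values, limma 3.58.1 in R 4.3.3 (lmFit, eBayes with trend) compared mutant with wild type on log2(value + 1). The 17815 tested genes had a mean of 10 or more, with two-sided p-values adjusted by Benjamini-Hochberg and a threshold of 0.05. Adjusted p-values without a named tool are limma's, log2 changes are on this scale, and errors are standard errors (log2 changes) or SD (levels). Levels per kilobase used the merged exon length. Pair ratios were tested with the exact permutation test of scipy 1.17.1. The Lars2 alignment used Biopython 1.88. The alternatives were no filter or a mean of 50, pseudocounts of 0.5 and 8, equal totals, TMM, a replicate block, robust and weighted fits, edgeR 4.0.16 and DESeq2 1.42.0 on recovered reads, and leaving out each library. On recovered reads edgeR called 3283 genes and DESeq2 4168. The members, lists and tests were chosen with earlier results of these data known, so no list is independent evidence. Every member has a log2 change. Values per library are given for the 5 lowest and 3 highest of each class and for Gars, Kars and Eprs, and for up to 4 genes per further list the smallest p decided. A few genes under this rule are left unreported here, and other genes were chosen after their values were seen.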

Additional observations from a re-analysis of the deposited data

How the results depend on the processing

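Of 612 refits of single members (36 genes under 17 alternatives), 571 kept direction and side of the threshold, 29 lost a call, 10 gained one and 2 changed sign. The sign changes were those of Wars2, at 0.041 with equal library totals and within -0.061 to 0.043 when 1 library was left out. Calls for 12 cytosolic genes (all called ones except Cars, Tars and Vars) and for Yars2 and Iars2 held under all 17 alternatives. Across these the count of cytosolic genes called ran from 12 to 17 and of mitochondrial genes from 2 to 5. Leaving out 1 library gave 1905 to 2788 genes called in all, against 3352, with the lowest number without wild type replicate 2. It also gave 2 to 3 mitochondrial genes called, a cytosolic median of -0.57 to -0.46, and a median pair difference of -0.37 to -0.27. Equal library totals gave a cytosolic median of -0.44, and over all genes 1827 higher and 1647 lower calls, against 1414 and 1938. The change in the log2 ratio of Farsa to Fars2 ran from -0.071 to 0.069 when 1 library was left out. DESeq2 on recovered reads also called Farsa, Wars and Pars2. Cars was not called by edgeR (adjusted p = 0.0521). The causes were not tested.

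The fit with a replicate block called 14 cytosolic and 3 mitochondrial genes and 3066 genes in all. It did not call Cars (adjusted p = 0.052) or Tars2 (adjusted p = 0.0511). Deviations of same-numbered libraries correlated at -0.022, -0.066 and -0.01, against -0.064 to 0.096 for the other combinations. These values give no sign that the numbers pair the libraries, but so few libraries cannot settle it. With 3 libraries per genotype, small changes such as that of Qars remain within error.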

Other observations

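Tarsl2, a threonyl-tRNA synthetase-like gene, belongs to the same family but was not on the list of members, and it was chosen after its values were seen. It had 243, 369 and 374 normalised reads in the mutant libraries, against 689, 698 and 924 in the wild-type libraries. All mutant libraries were well below the lowest wild-type library, and the log2 change of -1.24 ± 0.21 (limma adjusted p = 0.00306) was lower than that of any of the 36 members.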
